A study of Mus musculus with 8 samples.

Results

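The genes of heme synthesis were followed in mouse spleen: the 7 enzymes Alas1, Alas2, Alad, Uros, Urod, Cpox and Ppox, the final enzyme Fech, and the carrier Slc25a38. Members were the genes measured by a probe set that the array annotation assigns to that symbol alone, and where a gene had several such probe sets the row with the highest mean was kept. All 9 were found among 19938 genes measured this way, and all 9 were among the 14953 genes tested, which are those above the 25th percentile of mean log2 intensity.

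RNA came from splenocytes of 8 mice of C57/B6 background, each mouse on its own Affymetrix Mouse Gene 1.0 ST array. The 2 WT mice are labelled male. The 3 Sle1.3 mice are lupus mice, of which replicates 1 and 2 are labelled female and replicate 3 male. The 3 Sle1.3/E2-2het mice are Sle1.3 animals haplodeficient for E2-2, of which replicates 1 and 2 are labelled male and replicate 3 female. The series title describes the plasmacytoid dendritic cells of the latter group as non-functional. Spleens were digested with collagenase and DNase I in every group, and the labels give no age. E2-2 deficiency was studied only on the Sle1.3 background, so no group carried it alone.

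Heme is the iron-containing ring that hemoglobin, cytochromes and many other enzymes hold. Its synthesis starts in the mitochondrion, where an ALAS enzyme joins glycine and succinyl-CoA, continues in the cytosol, and ends in the mitochondrion with the insertion of iron by ferrochelatase. Red cell precursors use Alas2 for the opening step and other cells use Alas1. The red pulp of the mouse spleen holds red cell precursors, whose number rises when demand for red cells is high, and macrophages that break down heme from old red cells. In these mixed cells, fewer cells of a type and less RNA per cell cannot be told apart.

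The arrays fell into 2 technical sets that the labels do not name. The lowest intensity was 4.57 to 5.11 in 6 arrays, which hold replicates 1 and 2 of each genotype, and 10.9 in the array labelled Sle1.3 replicate 3 and 11.2 in the array labelled as the third Sle1.3/E2-2het mouse. Differences below are therefore from a limma fit with genotype and array set, over all 8 arrays, with p-values adjusted by Benjamini-Hochberg over the 14953 genes. Both arrays of the second set go against a label. The array labelled Sle1.3 replicate 3 is labelled male but had a log2 intensity of 11.90 for Xist, the RNA of the inactive X chromosome, against 3.75 to 4.29 in the arrays with Y-linked transcripts. Tcf4, the gene of E2-2, was at 8.18 and 8.13 in Sle1.3/E2-2het replicates 1 and 2, below all other arrays, but at 9.25 in the array labelled Sle1.3/E2-2het replicate 3, above the 9.06 of the array labelled Sle1.3 replicate 3. Whether this probe set covers the deleted part of the gene is not given in the sources used here. By Xist all Sle1.3 mice were female and all WT mice male, so in Sle1.3 against WT genotype and sex cannot be told apart. Sle1.3/E2-2het mice were male in the first set, and the mouse of the second set was female. The first set therefore compares Sle1.3/E2-2het with WT among males. Within an array set, Sle1.3/E2-2het and Sle1.3 are compared within a sex only by the 2 arrays of the second set. There Tcf4 was not lower in the array labelled Sle1.3/E2-2het. B cell markers had a mean log2 intensity of 10.02 to 10.62 per array, as a check of the labelled tissue.

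Alas2 and Fech, the erythroid opening enzyme and the enzyme that inserts iron, were the members that rose in Sle1.3/E2-2het spleens over Sle1.3 spleens. Alas2 was 5.05-fold higher (95% interval 2.72 to 9.36) and Fech 2.26-fold higher (1.62 to 3.16). No member fell. Over all genes tested, 0.615% passed in either direction and 0.154% passed as higher.

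Alas2 had log2 intensities of 10.14, 8.61 and 8.002 in Sle1.3/E2-2het replicates 1, 2 and 3. It was at 7.18, 5.90 and 6.66 in the Sle1.3 replicates and at 6.74 and 6.50 in the WT replicates. The gene lies on the X chromosome. Every array labelled Sle1.3/E2-2het was above every other array, while Sle1.3 and WT overlapped. The log2 difference from Sle1.3 was 2.34 ± 0.41 (SE, n = 3 and 3, limma, adjusted p = 0.0293), the 4th largest increase of the 14953 genes. Within the first array set it was 2.83. Within the second it was 1.34, where both arrays are female and where the labelled genotype was not borne out by Tcf4. Without the second set the difference kept its call, at an adjusted p of 0.0201 with limma. In that fit genotype and sex cannot be told apart, since by Xist the Sle1.3/E2-2het mice were male and the Sle1.3 mice female.

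Fech had log2 intensities of 8.23, 7.68 and 7.31 in Sle1.3/E2-2het replicates 1, 2 and 3. The Sle1.3 replicates had 6.64, 6.21 and 6.85, and the WT replicates had 6.47 and 6.70. The Sle1.3/E2-2het arrays again lay above all others, with the lowest of them in the second set. The log2 difference from Sle1.3 was 1.18 ± 0.22 (SE, n = 3 and 3, limma, adjusted p = 0.0415). Within the first array set it was 1.54, and within the second 0.46. Without the second set the limma adjusted p was 0.0111, again from male Sle1.3/E2-2het and female Sle1.3 mice.

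Fech lies on chromosome 18, as does Tcf4, with 28 tested genes between them in RefSeq order. This was looked up after the values were seen. In the comparison of Sle1.3/E2-2het with Sle1.3, none of these 28 genes rose and 1 fell by the limma test. Over all tested genes 0.154% rose and 0.461% fell. The log2 differences of the 28 ran from -1.23 to 0.40. The 3 nearest tested genes on each side of Fech had differences between -0.28 and 0.14, none of which passed. Against WT, 4 of the 28 rose and 8 fell in Sle1.3/E2-2het, where 10.7% and 23.4% of all tested genes did.

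Under the 18 alternatives tried, Alas2 kept its call in 10 and Fech in 8, and the highest limma adjusted p was 0.478 for both. For Alas2 the limma adjusted p became 0.0523 without Sle1.3 replicate 1, 0.0528 without Sle1.3/E2-2het replicate 2 and 0.102 without either WT array, with differences of 2.34 to 2.63. For Fech these values were 0.134, 0.120 and 0.107, with differences of 1.18 to 1.23, and median centring (0.0568) and no filter on low genes (0.0624) ended its call too. The labels do not say that same-numbered mice are pairs. Counting them as such in all genotypes gave limma adjusted p of 0.00155 for Alas2 and 0.0136 for Fech. It moved the number of genes called from 92 to 262.

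The other enzymes of the pathway had smaller differences from Sle1.3. Urod, which makes coproporphyrinogen, was at 7.92, 7.78 and 7.93 in Sle1.3/E2-2het against 7.54, 7.13 and 7.50 in Sle1.3. Uros, which closes the ring, was at 6.44, 6.52 and 6.51 against 6.18, 6.11 and 6.31. In neither gene did these groups overlap, but their log2 differences of 0.48 ± 0.13 and 0.29 ± 0.12 (SE) did not pass in limma, with adjusted p of 0.146 and 0.432.

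Cpox, which oxidises coproporphyrinogen in the mitochondrion, was at 7.27 and 7.25 in Sle1.3/E2-2het replicates 1 and 2 but at 6.50 in replicate 3. It was at 6.61, 6.43 and 6.48 in Sle1.3, so the 2 arrays of the second set were level. The log2 difference was 0.74 within the first set, 0.02 within the second, and 0.50 ± 0.15 (SE) over both, with a limma adjusted p of 0.204. Groups did not overlap for 5 of the 9 members as higher (Alas2, Fech, Urod, Uros and Ppox) and for none as lower, while 3.04% and 4.33% of all tested genes did so. The median log2 difference of the members was 0.29, and that of all tested genes was 0.0017.

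Alas1, the opening enzyme of non-erythroid cells, had log2 intensities of 6.32, 6.38 and 7.08 in Sle1.3/E2-2het spleens. It was at 6.997, 6.58 and 7.30 in the Sle1.3 spleens, and WT had 6.56 and 6.80. Its difference, Sle1.3/E2-2het minus Sle1.3, was -0.37 ± 0.14 (SE), with a 95% interval of -0.67 to -0.06, and did not pass in limma (adjusted p = 0.356). Each array of the second set was above its genotype's other arrays. Relative to the WT mean, the change of Alas2 exceeded that of Alas1 by 3.88, 2.29 and 0.99 log2 units in Sle1.3/E2-2het replicates 1, 2 and 3. This quantity, for the Sle1.3 replicates, was 0.25, -0.62 and -0.58. It was positive in every Sle1.3/E2-2het array and 0.25 or lower in the Sle1.3 arrays, and it is given with no test because the probe sets of different genes share no scale.

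**Figure D1:**
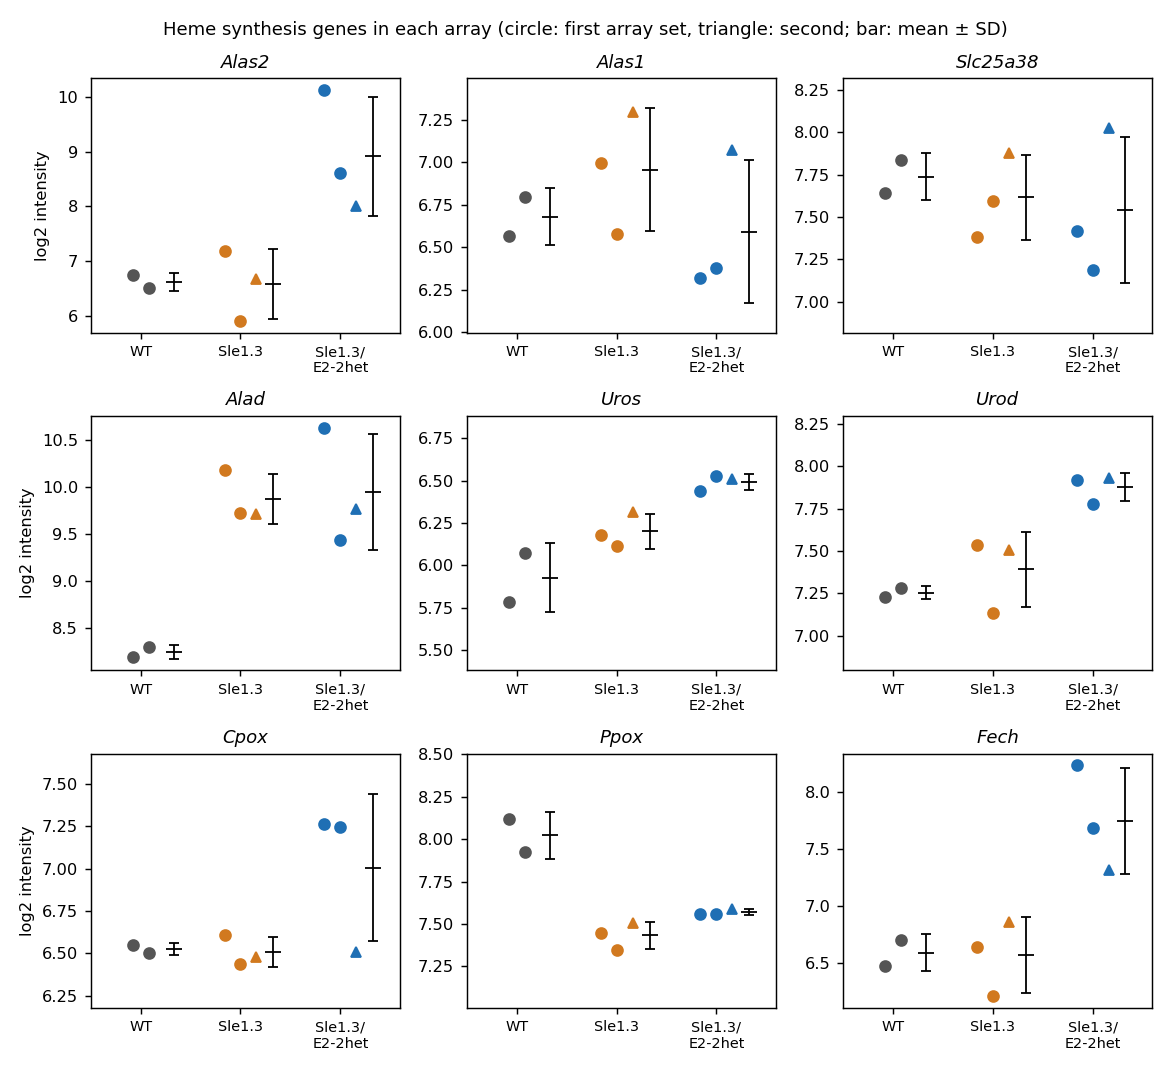
Log2 intensity of the 9 genes in each of the 8 arrays, by genotype, with circles for the first array set, triangles for the second, and bars for the mean ± SD. Alas2 and Fech are highest in Sle1.3/E2-2het, Alad is lowest in WT, and the vertical scale differs between panels.

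The sequence just before the start of these genes was read because Alas2, Fech and Cpox were all high in Sle1.3/E2-2het replicates 1 and 2. GATA1, a transcription factor of red cell precursors, binds DNA that holds GATA. The motif searched on both strands was GATA with an A or a T before it and an A or a G after it, 6 letters in all, in the 250 bases before each RefSeq start (GRCm38.p6). Windows were at hand for 8 of the 9 genes, all but Fech. Shown are Alas2, which rose, Cpox, whose window holds 2 motifs, and Alas1, which had no motif, each 5′ to 3′ on the gene's strand with motif letters in capitals.
Alas2, chrX:150547167-150547416, + strand: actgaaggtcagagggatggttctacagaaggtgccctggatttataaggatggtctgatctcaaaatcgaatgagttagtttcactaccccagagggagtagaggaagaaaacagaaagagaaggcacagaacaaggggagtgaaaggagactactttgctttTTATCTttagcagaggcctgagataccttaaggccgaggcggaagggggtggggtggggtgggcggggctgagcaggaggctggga
Cpox, chr16:58669958-58670207, + strand: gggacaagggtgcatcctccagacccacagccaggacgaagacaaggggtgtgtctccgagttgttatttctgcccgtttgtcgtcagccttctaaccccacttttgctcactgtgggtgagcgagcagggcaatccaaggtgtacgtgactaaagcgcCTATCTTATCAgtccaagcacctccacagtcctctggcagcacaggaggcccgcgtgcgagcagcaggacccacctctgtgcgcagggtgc
Alas1, chr9:106247955-106248204, - strand: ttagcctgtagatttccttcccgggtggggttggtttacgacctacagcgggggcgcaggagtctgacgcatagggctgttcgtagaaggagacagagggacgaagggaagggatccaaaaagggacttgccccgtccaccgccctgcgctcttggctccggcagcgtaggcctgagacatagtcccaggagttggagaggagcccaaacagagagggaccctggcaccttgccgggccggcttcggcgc
The capitals of Alas2 spell AGATAA on the opposite strand, at bases -86 to -81 from the start. Those of Cpox hold AGATAG on the opposite strand, at -91 to -86. They also hold a motif that reads TGATAA on the opposite strand, at -86 to -81, so the motifs share a base. Of the 11 windows of members, 3 held a motif, belonging to Alas2, Cpox and Uros. The Uros window, not shown, also held 2 motifs, and the windows of Urod and Alad held none. Of all 32851 windows of the same length, 26.5% did, so the members were near the background. A match is a run of letters and no measure of binding.

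Alad, the enzyme that joins 2 molecules of aminolevulinic acid, was the member that rose in Sle1.3 spleens over WT spleens, by 3.29-fold (95% interval 2.14 to 5.05). Ppox, the enzyme before Fech in the pathway, fell, to 0.654 of its WT level. The other 7 members did not pass. Over all genes tested, 24.0% passed in this comparison, 7.46% as higher and 16.5% as lower, so 2 of 9 members is near the background.

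Alad had log2 intensities of 8.19 and 8.30 in WT. It was at 10.19, 9.73 and 9.72 in the Sle1.3 replicates, and Sle1.3/E2-2het had 10.64, 9.43 and 9.77. Both WT arrays lay more than 1 log2 unit below every other array, and the arrays of the other genotypes overlapped. The difference between Sle1.3 and WT was 1.72 ± 0.28 (SE, n = 3 and 2, limma, adjusted p = 0.00224), and 1.71 without the second array set. Sle1.3/E2-2het minus Sle1.3 gave 0.07 ± 0.24 (SE, limma, adjusted p = 0.948), with a 95% interval of -0.46 to 0.60. The Alad level thus separated WT from both Sle1.3 genotypes, while a difference between those genotypes was not detectable within that interval.

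Ppox had log2 intensities of 8.12 and 7.92 in WT. It was at 7.44, 7.35 and 7.51 in the Sle1.3 replicates, and Sle1.3/E2-2het had 7.56, 7.56 and 7.59. Both WT arrays lay above all 6 others. The difference between Sle1.3 and WT was -0.61 ± 0.14 (SE, limma, adjusted p = 0.00854). After quantile normalization it was -0.41, with a limma adjusted p of 0.0683, and the call was lost. With labelled sex in place of the array set, the limma adjusted p was 0.0727 for Alad and 0.219 for Ppox.

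The remaining members differed little between Sle1.3 and WT. Uros had a log2 difference of 0.24 ± 0.14 (SE), and its WT values of 5.78 and 6.07 lay below the 3 Sle1.3 values. Groups did not overlap as higher for Alad and Uros and as lower for Ppox, as did 21.5% and 24.4% of all tested genes. Slc25a38, the carrier known for bringing glycine into the mitochondrion, had log2 intensities of 7.64 and 7.84 in WT. The Sle1.3 replicates had 7.38, 7.59 and 7.88, and Sle1.3/E2-2het had 7.42, 7.19 and 8.02. The 3 genotypes overlapped in this gene, and the array of the second set was the highest in both genotypes that have one. Alas2 differed by 0.17 with a 95% interval of -0.88 to 1.21, Fech by 0.02 (-0.55 to 0.58), Cpox by 0.11 (-0.27 to 0.50), Urod by 0.09 (-0.24 to 0.43) and Alas1 by 0.07 (-0.29 to 0.43).

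**Figure D2:**
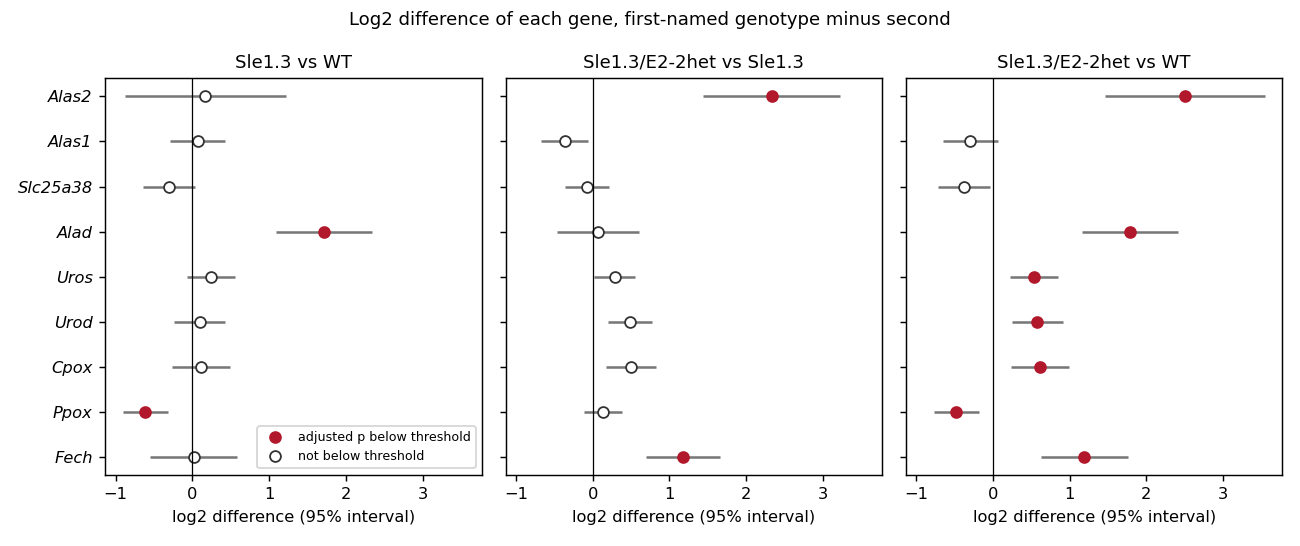
Log2 difference of each of the 9 genes with its 95% interval in the 3 comparisons, first-named genotype minus second, with filled points where the limma adjusted p was under 0.05. Alas2 and Fech pass where Sle1.3/E2-2het is compared with either other genotype, and Alad and Ppox where either Sle1.3 genotype is compared with WT.

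The chromosomal neighbours of Alad and Ppox were examined after the values of both genes were seen. On chromosome 4, the tested genes on one side of Alad were also higher in Sle1.3, with log2 differences of 0.57 for Hdhd3 (limma, adjusted p = 0.0246) and 0.47 for Bspry (0.0392). Wdr31 beyond them, at 0.27, did not pass. On the other side Pole3, 4933430I17Rik and Rgs3 had differences of -0.07, 0.16 and 0.26 and did not pass. On chromosome 1, the genes that border Ppox on either side were lower in Sle1.3, B4galt3 at -1.07 (limma, adjusted p = 0.000859) and Usp21 at -0.62 (0.0137). Dedd, the third gene on the side of Usp21, was at -0.83 (limma, adjusted p = 0.00479). Adamts4 and Ufc1 had differences of 0.09 and 0.33 and did not pass, and Fcer1g was higher by 0.60 (limma, adjusted p = 0.0363). Of the 6 neighbours of Ppox, 3 were lower, 1 was higher and 2 did not pass, where 16.5% of all tested genes were lower and 7.46% higher. Called neighbours were not particular to Alad and Ppox. Beside Alas1, Tlr9 was at -1.07 (limma, adjusted p = 0.00138) and Dusp7 at -0.66 (0.00748). Beside Urod, Hpdl was at 0.51 (limma, adjusted p = 0.0316) and Hectd3 at -0.53 (0.0215). No neighbour of Alas2 passed.

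**Figure D3:**
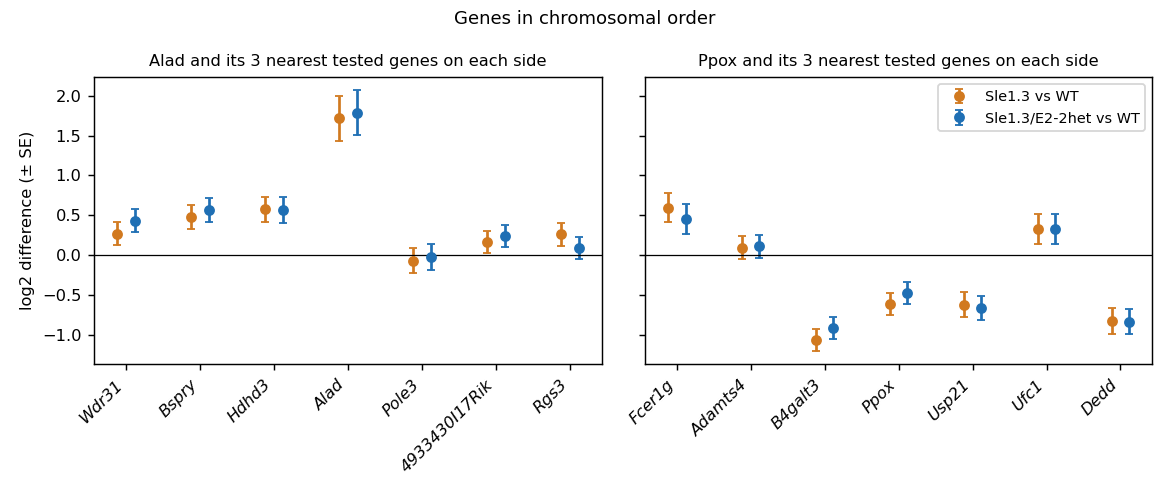
Log2 difference ± SE from WT of Alad, Ppox and the 3 nearest tested genes on each side, in chromosomal order, for Sle1.3 (orange) and Sle1.3/E2-2het (blue). B4galt3, Usp21 and Dedd lie below 0 with Ppox, and Hdhd3 and Bspry above 0 beside Alad.

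Against WT, 6 members rose in Sle1.3/E2-2het spleens (Alas2, Alad, Fech, Cpox, Urod and Uros) and Ppox fell. Over all genes tested, 34.1% passed, 10.7% as higher and 23.4% as lower. This comparison shares its arrays with both comparisons above, the WT arrays with the latter and the others with the former, so it is no separate evidence. Without the second array set, which leaves only male arrays in this comparison, the counts were the same, 6 higher and 1 lower. The log2 differences were then 2.75 for Alas2, 1.79 for Alad and -0.46 for Ppox. Groups did not overlap for 5 members as higher and 1 as lower, against 25.9% and 23.2% of all tested genes. Cpox was the called member with overlapping groups, because its value of 6.50 in replicate 3 lay at the level of WT (6.55 and 6.50).

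Side by side, the log2 differences from WT were 0.17 in Sle1.3 and 2.51 ± 0.48 (SE) in Sle1.3/E2-2het for Alas2, whose limma adjusted p in the latter was 0.00375. Without Sle1.3/E2-2het replicate 1 the latter difference was 1.78. They were 0.02 and 1.19 ± 0.26 for Fech, with 0.00668 in the latter. Alad stood at 1.72 and 1.79, Ppox at -0.61 and -0.48, and Alas1 at 0.07 and -0.30. The smaller increases in Sle1.3/E2-2het were 0.61 ± 0.18 for Cpox (limma, adjusted p = 0.0202), 0.58 ± 0.15 for Urod (0.0150) and 0.53 ± 0.14 for Uros (0.0160). Slc25a38 was at -0.31 in Sle1.3 and -0.38 in Sle1.3/E2-2het, and neither passed. After median centring of the arrays its difference in Sle1.3/E2-2het was -0.46 and passed (limma, adjusted p = 0.0468).

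Leaving out 1 array ended several of these smaller calls. Without WT replicate 1 the limma adjusted p was 0.0549 for Cpox, 0.0512 for Urod, 0.0756 for Uros and 0.0757 for Ppox. Without WT replicate 2 it was 0.0547 for Alas2, 0.120 for Cpox and 0.0715 for Urod. Without Sle1.3/E2-2het replicate 1 it was 0.0789 for Cpox, 0.0611 for Urod and 0.0595 for Ppox, and without replicate 2 it was 0.0808 for Cpox, 0.0617 for Uros and 0.0517 for Ppox. Alad and Fech kept their calls in this comparison under all 18 alternatives tried.

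Genes of red cell precursors moved beside Alas2 and Fech. Of the 34 genes of the erythroid list, 22 were tested, and the globin genes were not among the probe sets with a single symbol. In Sle1.3/E2-2het against Sle1.3, 2 of the 22 rose, Slc4a1, the anion exchanger of the red cell membrane, by 2.25 ± 0.35 (SE, limma, adjusted p = 0.0157) and Kel, a membrane blood group protein, by 1.38 ± 0.27 (0.0469). None fell, and 21 of the 22 differences were above 0, with a median of 0.61. Over all tested genes 0.154% passed as higher. With the first array set alone, 5 of the 22 rose, where 0.528% of all tested genes passed. That set compares male Sle1.3/E2-2het with female Sle1.3 mice. The differences of Slc4a1 and Kel were 2.70 and 1.78 within the first set, and 1.36 and 0.58 within the second.

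The mean log2 level of the 22 genes was 7.69, 7.43 and 7.16 in Sle1.3/E2-2het. It was 6.90, 6.23 and 6.85 in the Sle1.3 replicates, and WT had 6.40 and 6.02. Every Sle1.3/E2-2het array was above all others, as for Alas2. The part of this red cell precursor signal in the differences of Alas2 and Fech was not tested. Against WT, 16 of the 22 rose in Sle1.3/E2-2het and 3 in Sle1.3, and none fell in either. Over all tested genes 10.7% rose in Sle1.3/E2-2het and 7.46% in Sle1.3, so the count of 3 is near the background. The largest in Sle1.3/E2-2het were the carbonic anhydrases Car1 and Car2 at 2.88 and 2.87, the ammonium channel Rhag at 2.65 and Slc4a1 at 2.49. In Sle1.3 the 3 were Car1, Ermap and the transcription factor Gata1, at 1.60, 0.95 and 0.64, while Alas2 and Fech did not pass.

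Of 39 listed genes that supply, use, export or break down heme or iron, 36 were tested. In Sle1.3/E2-2het against Sle1.3, 1 rose, Slc25a37, the mitoferrin that brings iron into the mitochondria of red cell precursors, by 1.10 ± 0.20 (SE, limma, adjusted p = 0.0329). Its difference was 1.37 within the first array set and 0.55 within the second. None fell, and the median was 0.08, where 0.154% of all tested genes rose and 0.461% fell. In Sle1.3 against WT, 1 rose and 6 fell, with the exporter Flvcr1 at -0.77, the coactivator Ppargc1a at -0.69, the heme-binding repressor Bach1 at -0.67 and the transporter Flvcr2 at 0.65. There 7.46% of all tested genes were higher and 16.5% lower, so the count of 6 is near the background. With the first set alone the counts were 1 and 3. In Sle1.3/E2-2het against WT, 6 rose and 7 fell, among them the heme-degrading enzyme Hmox1 at 1.17, the mitochondrial glycine enzyme Shmt2 at -1.09, Flvcr1 at -0.75 and Slc25a37 at 0.69, where 10.7% of all tested genes rose and 23.4% fell.

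Most of the pathway's enzymes work in mitochondria, but genes of general mitochondrial content did not rise. Of 19 tested, none passed in Sle1.3/E2-2het against Sle1.3, with a median of -0.13. The citrate synthase gene Cs and the ATP synthase gene Atp5a1 had the smallest p, at -0.29 and -0.26 (limma, adjusted p = 0.508 and 0.519). Against WT, 4 of the 19 fell in Sle1.3/E2-2het, where 23.4% of all tested genes did, and 2 fell in Sle1.3, where 16.5% did. Neither count is above the background, and with the first array set alone they were 3 and 0.

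Markers of other spleen cells also moved. Of 13 red pulp macrophage genes, 2 rose in Sle1.3/E2-2het against Sle1.3, the iron exporter Slc40a1 by 1.22 and Vcam1 by 1.09 (limma, adjusted p = 0.00912 and 0.0329), with a list median of 0.54. Of the 13 differences 10 were above 0, and over all tested genes 0.154% passed as higher. The mean level of this list was 7.66 to 8.36 in Sle1.3/E2-2het spleens, 7.32 to 7.63 in Sle1.3 spleens, and 6.78 and 7.32 in the WT pair. Of the 9 B cell and 9 T cell genes none passed in that comparison. Of 14 genes of dividing cells Top2a fell by 0.86, and of 7 megakaryocyte genes Ppbp fell by 1.01, where 0.461% of all tested genes fell. The dividing cell list had a median of -0.56, with 1 of its 14 differences above 0. None of the 11 neutrophil precursor genes passed, but their median was -0.50, with 1 difference above 0. Within the first array set these 2 medians were -0.40 and -0.14. With the first array set alone, 1 macrophage gene rose and no gene of dividing cells or megakaryocytes passed by the limma test.

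In Sle1.3 against WT, where Alad rose, all 11 neutrophil precursor genes rose, with a median of 3.16, and 13 of 14 genes of dividing cells, with a median of 1.32. In the same comparison 5 macrophage and 4 megakaryocyte genes rose, 1 megakaryocyte gene fell, and 2 B cell and 2 T cell genes fell. Over all tested genes 7.46% were higher and 16.5% lower, so these falls are near the background. The neutrophil precursor list averaged 7.20 and 6.68 in WT, 8.89 to 10.72 in Sle1.3 spleens and 8.77 to 10.34 in the arrays labelled Sle1.3/E2-2het. The part of these cells in the difference of Alad was not tested. In Sle1.3/E2-2het against WT, 11 neutrophil, 8 dividing cell, 8 macrophage and 1 megakaryocyte genes rose, while 5 B cell, 4 T cell and 1 megakaryocyte genes fell. Over all tested genes 10.7% were higher and 23.4% lower there, so the megakaryocyte counts are near the background.

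**Figure D4:**
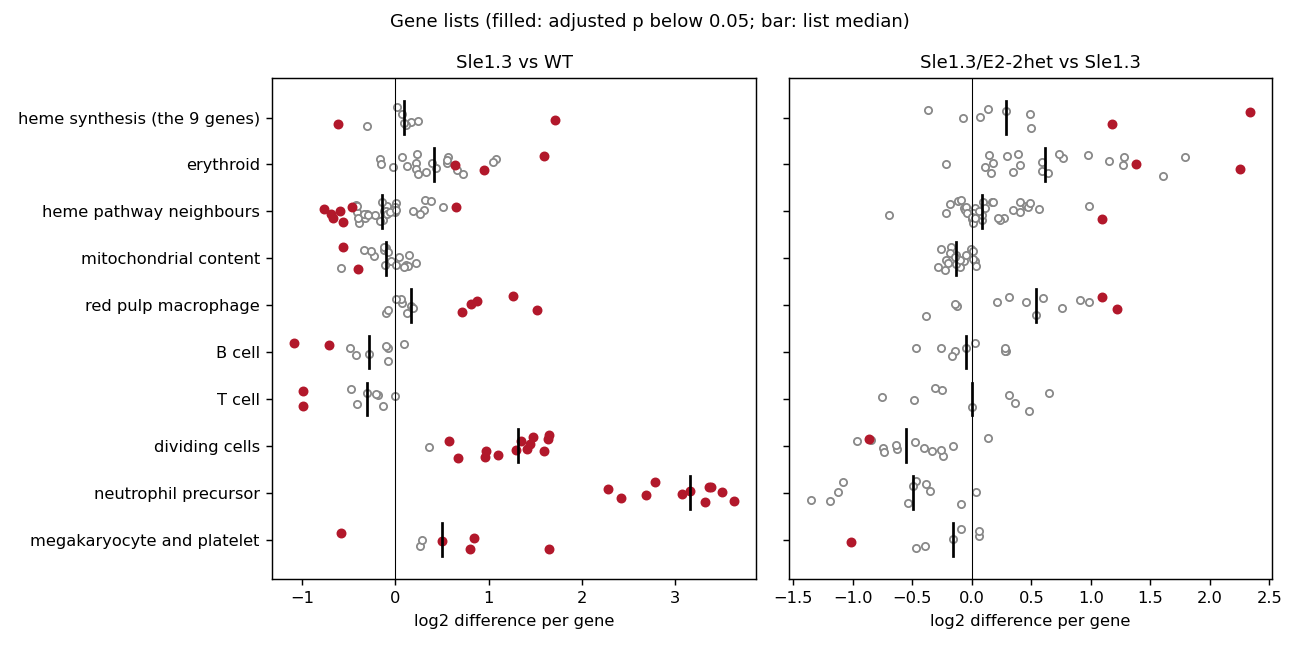
Log2 difference of each tested gene of the 9 heme synthesis genes and of 9 other lists, in Sle1.3 against WT (left) and Sle1.3/E2-2het against Sle1.3 (right), with filled points where the limma adjusted p was under 0.05 and a bar at each list's median. On the right the medians of the erythroid and red pulp macrophage lists, 0.61 and 0.54, are the highest. Those of the dividing cell and neutrophil precursor lists, -0.56 and -0.50, are the lowest there. On the left that of the neutrophil precursor list, 3.16, is the highest.

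The genes most like Alas2 over the 8 arrays were found by Pearson correlation of log2 values after the fitted array set term was removed. They were Glrx5 (r = 0.981), whose protein serves iron-sulfur cluster assembly, Fech (0.978), Cryga (0.974), the cell survival gene Bcl2l1 (0.974) and Klrb1 (0.971). Among the other members Urod stood at 0.957 and Cpox at 0.923, Uros at 0.768, Alad at 0.577, Ppox at -0.191, Slc25a38 at -0.550 and Alas1 at -0.646. These values describe 8 arrays that share genotype groups and are given with no test. Cryga, a lens crystallin gene, ranged only from 4.90 to 5.28 in log2 intensity, near the filter's limit of 5.01. The genes most like Alas1 were 4930503L19Rik (0.970), Glt8d1 (0.967), Tmem176a (0.966), Erlec1 (0.965) and Anp32e (0.962), none of which is among the 5 most like Alas2.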

How the data were processed

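Values were taken from the series' table of 35556 probe sets, where each deposited value is a linear intensity. The submitters' processing notes name Affymetrix Expression Console and RMA; versions and the genome build are not given in the sources used here. Log2 was taken here, and arrays were not normalized again. Of the probe sets, 21789 had 1 gene symbol in the platform annotation, 1621 had several and 12146 had none, and neither of the latter kinds was used. The highest-mean row stood for a gene. Genes above the 25th percentile of mean log2 intensity (5.01) entered a limma fit (version 3.58.1, R 4.3.3) with genotype and array set, 4 residual degrees of freedom, two-sided tests and Benjamini-Hochberg adjustment at 0.05. The fit was tested on simulated data. The array set was taken from the lowest intensity of each array and replaced labelled sex, which 1 array contradicts.

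The table holds no detection calls, and precision is limited by the small number of arrays. Same-numbered Sle1.3 and Sle1.3/E2-2het arrays deviated together (r = 0.573, 0.369 and 0.618 over genes). These deviations are from genotype means with the array set not removed, and the third pair is also the second array set. For WT with same-numbered arrays of the other genotypes r was -0.077 to 0.214. Numbers were taken as pairs in all genotypes, WT included, in an alternative fit, though the labels give no pairing. The members and gene lists were chosen with earlier results of these data known. Named genes were all members, up to 4 passing genes per list with the largest difference, or the 2 with the smallest p, and the 5 genes most like Alas2 and Alas1. Alternatives were the pairing, no array set, labelled sex, the first set alone, median centring, quantile normalization, other filters, the mean of probe sets, a trended robust variance and leaving out each array. Counts of list genes with the first set alone were added after seeing the data. Gene order and promoter windows came from RefSeq (GRCm38.p6), with 14907 tested genes and all 9 members matched.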

Additional observations from a re-analysis of the deposited data

How the results depend on the processing

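Of the 11 differences of members that passed, all kept their direction under the 18 alternatives. The replicate block, which pairs same-numbered mice, kept all 11 calls and gave 262 genes called in Sle1.3/E2-2het against Sle1.3 in place of 92; it changed no call of a member. The stricter filter, the mean of probe sets and the first set alone also kept all 11, median centring and no filter 10 each, and a trended robust variance 8 (limma adjusted p of 0.361 for Alas2 against Sle1.3). Quantile normalization kept 7, with limma adjusted p of 0.0513 for Alas2 and 0.0574 for Fech against Sle1.3 and a difference of -0.23 (0.247) for Ppox in Sle1.3/E2-2het against WT. No array set kept 4 and labelled sex 3; the cause was not tested.

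Genes called numbered 3585 in Sle1.3 against WT, 92 in Sle1.3/E2-2het against Sle1.3 and 5092 in Sle1.3/E2-2het against WT. Without the array set these were 879, 2 and 1076. With labelled sex they were 199, 0 and 492 by limma, where 392 genes of the middle comparison had an unadjusted p under 0.05. In Sle1.3 against WT the first set alone gave 2367 and quantile normalization 2245, of which 945 were higher and 1300 lower against 1115 and 2470, and the latter gave 2792 in Sle1.3/E2-2het against WT. In that comparison median centring gave 1177 higher and 4335 lower against 1599 and 3493. Leaving out each array gave 1107 to 3649, 26 to 165 and 1634 to 5214.

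The sign of some small differences that did not pass turned. In Sle1.3 against WT, Alas2, Cpox and Fech were at -0.039, -0.018 and -0.020 without the array set and at -0.079, -0.0047 and -0.16 with the first set alone, and Fech was at -0.022 after median centring. Leaving out each array gave -0.11 to 0.19 for Alas1, -0.11 to 0.81 for Alas2, -0.0047 to 0.26 for Cpox, -0.16 to 0.30 for Fech and -0.038 to 0.25 for Urod. In Sle1.3/E2-2het against Sle1.3 it gave -0.28 to 0.41 for Alad and -0.18 to 0.024 for Slc25a38. Where a genotype was left with 2 arrays its spread was pooled with the others, and a lone WT array was assumed to vary like the other groups.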
